A study of Homo sapiens with 10 samples.

Results

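The histone genes named HIST code for the core histones H2A, H2B, H3 and H4 and the linker histone H1, and their reads were counted here in RNA selected on poly(A) tails. The genes were chosen by symbol and by summed counts. Members are protein-coding genes whose GENCODE 29 symbol starts with HIST1H, HIST2H, HIST3H or HIST4H, whose Ensembl identifier is in the deposited count files, and which held at least 10 counts summed over the 10 libraries. GENCODE 29 has 71 such symbols, of which 39 had an identifier among the 63677 in the files, and 24 of these 39 reached 10 counts. The other 15 were 11 genes without a single count and 4 genes with 1 to 9 counts. Identifiers were missing from the files for 32 genes, none of them in class H1, 7 in H2A, 8 in H2B, 8 in H3 and 9 in H4. HIST1H4J lay just inside the threshold with 15 counts and HIST3H3 just outside it with 7.

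The study derived 10 lines from RS4;11, an established cell line of B-cell precursor acute lymphoblastic leukemia. The 5 VENins lines were grown in rising concentrations of the BCL-2 inhibitor venetoclax (VEN), and the 5 VENsens lines were exposed to the solvent DMSO. Each line gave 1 poly(A) RNA library, and counts on genes ranged from 20631907 to 28323643 per library. All lines share 1 parental line. According to the methods, VEN was washed out of cultures before they were analyzed.

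Replication-dependent histone genes are transcribed mainly in S phase, and most of their mRNAs end just after a conserved stem-loop bound by the protein SLBP and carry no poly(A) tail. Poly(A) selection keeps few of these mRNAs. Some of the genes also give polyadenylated mRNAs, which run past the stem-loop to a poly(A) signal and are known from differentiated and non-dividing cells.

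The label of the cells was checked on lineage markers, in CPM, a parts-per-million scale of the counts on genes, after normalization. All 10 B-lineage markers were above the filter on low counts, with mean levels between 6.02 CPM for DNTT and 723.1 CPM for IGLL1. DNTT was at 27.3 CPM in VENins 4 and 1.08 to 8.31 CPM in the others, with a mean of 3.66 CPM without that library. Among T-lineage markers, CD3E averaged 0.859 CPM, and CD2, CD3D, CD3G and CD7 had 1 to 6 counts in all libraries together. The myeloid marker CSF1R averaged 9.51 CPM, while MPO, LYZ and CD14 averaged 0.139, 0.413 and 0.483 CPM. Among erythroid genes, ALAS2 averaged 0.138 CPM, HBB had 1 count, and HBA1 and HBA2, a pair of near-identical genes whose reads may be dropped, had none.

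The stem-loop was searched in GENCODE 29 transcripts by its consensus, and is shown because the position of a transcript's end relative to it separates the forms of histone mRNA. Of 83129 protein-coding transcripts 70 held it, or 0.0842%. By gene, the share was 45.1% of the HIST genes (32 of 71) and 0.0867% of other genes (17 of 19613). In the sites printed here, from GENCODE 29 transcripts, capitals mark the 16 bases of the stem-loop and lower case the bases on either side.
HIST1H2AI: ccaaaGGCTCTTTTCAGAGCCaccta
HIST1H2BL: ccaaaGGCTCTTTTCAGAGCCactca
HIST1H2BD: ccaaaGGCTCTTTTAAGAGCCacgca
HIST1H2AC: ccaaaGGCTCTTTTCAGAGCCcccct
HIST1H2AG: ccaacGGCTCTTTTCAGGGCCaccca
HIST2H2BE: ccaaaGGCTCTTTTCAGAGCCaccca
HIST1H4H: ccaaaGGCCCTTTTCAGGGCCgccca
HIST4H4: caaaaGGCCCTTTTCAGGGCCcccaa

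The annotated transcripts ended at different distances from this stem-loop. In HIST1H2AI and HIST1H2BL 39 and 40 bases followed it, as they did in the shorter transcript of HIST1H2BD, with 39, while the longer transcript of HIST1H2BD lacked it. Transcripts of HIST1H2AC, HIST1H2AG and HIST2H2BE went on for 1114, 1761 and 1729 bases after it. The protein-coding transcripts of HIST1H4H went on for 18 and 630 bases, and that of HIST4H4 for 169. For 11 members, among them HIST1H1C, HIST1H2BK, HIST1H3D and HIST1H4C, the annotated transcripts were short and held no match to the consensus. The exonic length of 8 members was their coding length plus 3 bases, so reads in their untranslated regions have no place in GENCODE 29, and the annotation release behind the deposited counts is not given in the sources used here.

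The members sat in clusters, 18 on chromosome 6 and 5 on chromosome 1, with HIST4H4 alone on chromosome 12, and 15 of the 24 had a single exon in every annotated transcript. Promoters were available for 22 members, from RefSeq on build GRCh38.p14, each 250 bases before to 50 after the start. Motifs were searched as exact letters on both strands. The CCAAT box, spelled as its name, was in 19 of the 22 promoters and in 35.4% of all 27305 promoters, and the TATA box, searched as TATAA, was in 21 of 22 and in 21.5% of all. The octamer, searched as ATTTGCAT, was in 9 of 22 promoters and in 1.83% of all, and the H1 box, searched as AAACACA, was in 5 of 22 and in 5.79% of all. By class, the octamer was found in 4 of 5 H2A and 5 of 8 H2B promoters and in no H1, H3 or H4 promoter, the H1 box in all 4 H1 promoters and 1 H2A promoter, and the CCAAT box in none of the 3 H4 promoters. Some H2A and H2B members start on opposite strands of the same stretch, so their windows overlap. The same match can then count for both genes, as the octamer does for HIST1H2AC and HIST1H2BC, and the counts are not of separate sequences. A match describes letters in the window and is not evidence of a bound factor.

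The promoter of HIST1H2AC (RefSeq H2AC6), chr6:26123922-26124221 on the + strand of GRCh38.p14, is printed because HIST1H2BC starts from the same stretch on the - strand. Capitals mark matches to the CCAAT box, the TATA box or the octamer on either strand, and matches that overlap are run together.
HIST1H2AC promoter: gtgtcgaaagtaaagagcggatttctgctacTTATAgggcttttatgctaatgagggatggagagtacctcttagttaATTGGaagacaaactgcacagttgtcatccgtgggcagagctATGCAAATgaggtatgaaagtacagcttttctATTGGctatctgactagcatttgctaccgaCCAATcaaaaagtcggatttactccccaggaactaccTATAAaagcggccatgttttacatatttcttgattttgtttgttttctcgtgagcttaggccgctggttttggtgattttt

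The starts of HIST1H2AC and HIST1H2BC lay 219 bases apart, and the same head-to-head layout held for 3 other pairs of H2A and H2B members, 292 bases apart for HIST1H2AG and HIST1H2BJ, 268 for HIST1H2AI and HIST1H2BL and 323 for HIST2H2AC and HIST2H2BE. Members are compared with each other as CPM per kb of exonic length, except where counts or CPM without length are named. The scale per kb rests on the annotated lengths above. Per kb, HIST1H2AC was at 6.90 and HIST1H2BC at 1.89, a ratio of 3.65. HIST1H2AG was at 1.82 and HIST1H2BJ at 2.31, HIST1H2AI at 1.42 and HIST1H2BL at 2.39, and HIST2H2AC at 4.72 and HIST2H2BE at 3.00. The order in the HIST1H2AI pair depends on the share of windows of 75 bases that are unique to each gene, 39.9% in HIST1H2AI and 97.8% in HIST1H2BL. Divided by that share, the levels per kb were 3.57 and 2.44, so the order turned, while it stayed in the 3 other pairs. HIST2H2AC is 1 of the 8 members whose annotated exons are coding only, and without length it ran the other way, at 1.84 CPM against 6.59 CPM for HIST2H2BE. The HIST1H2AG pair also turned without length, at 4.08 CPM for HIST1H2AG against 2.19 CPM for HIST1H2BJ.

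Together the 24 members held 24164 counts in 10 libraries, and these values chose the members and are given as a description. HIST1H2BK had 5071 counts, HIST1H1C 4657 and HIST1H2AC 2749, and these 3 genes held 51.6% of the sum. By class, H2B held 42.5% of the counts, H1 32.7%, H2A 18.4%, H4 3.63% and H3 2.87%. These shares cover only genes matched by identifier, and the 32 unmatched genes, none of them in H1, may be in the files under other identifiers. Per kb, HIST1H2BK at 55.7 and HIST1H1C at 30.4 were above all other members, and HIST1H4J at 0.164 was the lowest. These levels are not divided by the share of unique windows, which was 20.4% in HIST1H4J, and its lowest place holds only without that step. The median of the members was 1.99 CPM without length, beside 18.7 CPM over all 16756 genes tested.

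**Figure D1:**
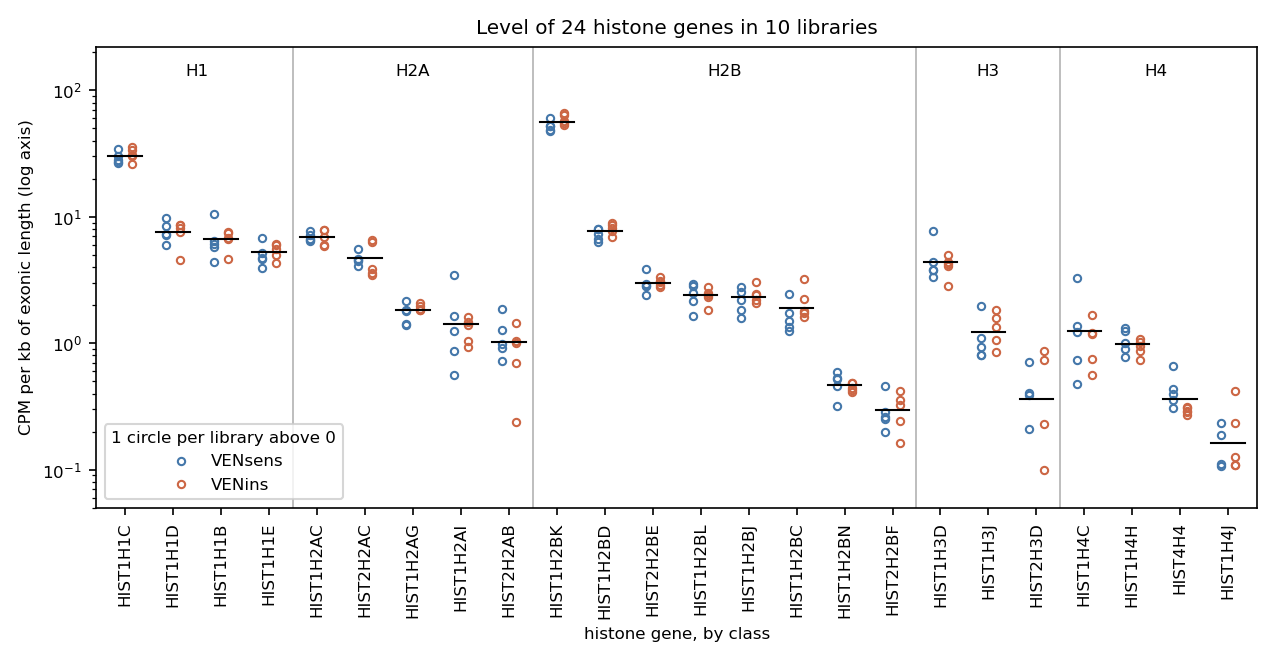
Levels of the 24 histone genes in CPM per kb of exonic length (log axis), by class, with 1 circle per library for VENsens and VENins and a bar at the mean of the 10 libraries. HIST1H2BK (mean 55.7) and HIST1H1C (30.4) lie above the others, and libraries with no count have no circle.

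How many reads a histone gene can receive also depends on how many of its sequences are its own, since the deposited counts leave out reads that map to several places. All windows of 75 bases, the read length, were compared with all other GENCODE 29 transcripts; the genome outside them was not searched. HIST2H2AA3, HIST2H2AA4, HIST2H3A, HIST2H3C, HIST2H4A and HIST2H4B shared nearly all windows with another gene and had no count, with at most 5.01% of windows unique. Among the 11 genes without a count, HIST1H2AA, HIST1H2BA and HIST3H2A had 100% unique windows. Among members the share of unique windows was 20.4% in HIST1H4J, 29.7% in HIST2H3D, 39.9% in HIST1H2AI, 49.5% in HIST1H2BK and 76.3% in HIST2H2AC. HIST1H3D had 429 counts and no unique window, since all of them are also in AL031777.3. That gene also shared 312 windows with HIST1H2AD. The comparison did not separate copies elsewhere in the genome from annotations that overlap at the same place, where a read can still map once.

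The comparison of VENins with VENsens asked whether histone mRNAs in poly(A) RNA differ between lines grown in VEN and their controls. It was made with edgeR's quasi-likelihood F test with line number as a block, on all genes that passed the filter on low counts, and p-values were adjusted over all of them. Of the 24 members 21 passed the filter, and HIST2H2AB (96 counts), HIST2H3D (35 counts) and HIST1H4J did not. With 1 library per line and the block, the p-values rest on how far the differences between lines of the same number vary.

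No histone gene passed an adjusted p of 0.05 in edgeR, where 33 of all 16756 genes did, or 0.197%, and none passed in DESeq2. At an unadjusted p under 0.05 there were 2 of 21 members and 16.2% of all genes. In no member did the 5 VENins values lie apart from the 5 VENsens values, against 4.66% of all genes. The tested members split into 12 higher and 9 lower in VENins, and 51.1% of all genes were higher. Their log2 fold changes ran from -0.52 to 0.35 with a median of 0.02, beside a median of 0.00 over all genes. The members' median rested on few lines: it was 0.17 without pair 4, -0.03 without pair 5 and 0.16 without VENsens 4 in a fit with no block. The 95% intervals were 0.321 to 1.46 wide on the log2 scale with a median of 0.688, and differences well inside them were not detectable with 5 lines a group. The coefficient of variation between lines in edgeR, estimated with the block, had a median of 0.137 in the members and 0.0857 in all genes. In bulk RNA, a different share of cells in S phase and a different amount of RNA per cell cannot be told apart.

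**Figure D2:**
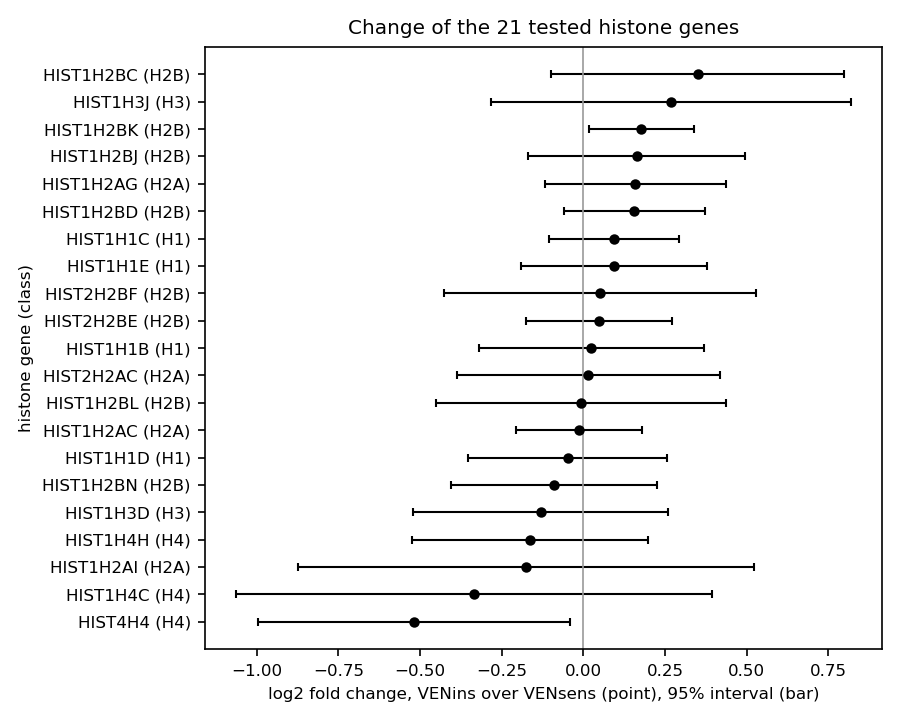
Log2 fold change of VENins over VENsens for the 21 histone genes tested (points), with 95% intervals from edgeR (bars). Only the intervals of HIST1H2BK (0.02 to 0.34) and HIST4H4 (-1.0 to -0.04) leave out 0, and neither gene passed after adjustment.

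HIST1H2BK, a core histone H2B gene with known polyadenylated mRNA, read 18.5, 22.8, 20.0, 18.3 and 19.9 CPM in VENsens 1 to 5 and 25.2, 24.4, 21.9, 20.8 and 20.3 CPM in VENins 1 to 5. Each VENins line was above the VENsens line of the same number, but VENsens 2 exceeded 3 VENins lines and the groups overlapped. The means were 19.9 ± 1.82 CPM in VENsens and 22.5 ± 2.16 CPM in VENins (SD, n = 5 each). The log2 fold change was 0.18 (SE 0.0751), with a p of 0.0323 in edgeR before and 0.264 after adjustment.

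HIST4H4, the H4 gene outside the clusters, read 0.790, 1.70, 1.02, 0.910 and 1.12 CPM in VENsens 1 to 5 and 0.799, 0.695, 0.814, 0.747 and 0.741 CPM in VENins 1 to 5. VENsens 2 was the highest library, the VENins lines lay close together, and only VENsens 1 fell into their range. The log2 fold change was -0.52 (SE 0.224), with a p of 0.0350 in edgeR before and 0.272 after adjustment, and was -0.31 when pair 2 was left out.

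The H1 genes code for linker histones, and all 4 members of the class were tested. HIST1H1C read 18.0, 19.5, 17.5, 21.9 and 17.2 CPM in VENsens 1 to 5 and 19.9, 23.0, 19.5, 16.8 and 21.6 CPM in VENins 1 to 5. Its groups overlapped across their range, with VENins 4 the lowest and VENins 2 the highest library, and the log2 fold change was 0.09 (SE 0.0929, adjusted p of 0.665 in edgeR), 0.04 without pair 5 and 0.21 without pair 4. HIST1H1D read 4.87, 5.67, 4.79, 6.46 and 3.99 CPM in VENsens and 3.05, 5.03, 5.74, 5.70 and 5.45 CPM in VENins, in the order of the lines. VENins 1 was the lowest and VENsens 4 the highest, the log2 fold change was -0.05, and without pair 1 it was 0.08. HIST1H1B read 4.12, 4.36, 3.91, 7.20 and 2.99 CPM in VENsens and 3.15, 4.54, 4.60, 5.07 and 5.14 CPM in VENins. Here VENsens 4 stood above all others and VENsens 5 below, and the log2 fold change of 0.02 turned to -0.03 without pair 3 and to -0.15 without pair 5. Its mean CPM ran the other way, 4.515 in VENsens and 4.498 in VENins, so its place among the 12 higher genes rests on the model alone. HIST1H1E read 3.91, 3.49, 3.56, 5.16 and 2.99 CPM in VENsens and 3.24, 4.21, 4.56, 4.48 and 3.75 CPM in VENins, with VENsens 4 again the highest library, and its log2 fold change was 0.09, 0.02 without pair 3 and 0.18 without pair 1.

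In class H2A, 2 of 4 tested genes were higher and 2 lower in VENins. HIST1H2AC, whose polyadenylated mRNA is known, read 11.1, 12.8, 10.7, 11.0 and 12.0 CPM in VENsens 1 to 5 and 13.1, 13.0, 11.5, 9.78 and 9.98 CPM in VENins 1 to 5. The VENins lines held both the highest and the lowest value, and the log2 fold change of -0.01 (SE 0.0909) was 0.02 without pair 4 and 0.05 without pair 5. HIST2H2AC read 1.79, 1.60, 1.80, 2.17 and 1.76 CPM in VENsens and 1.41, 1.35, 2.48, 1.49 and 2.57 CPM in VENins. VENins 3 and VENins 5 were high and the 3 other VENins lines low, so that the log2 fold change of 0.02 was -0.12 without pair 3 and -0.13 without pair 5. HIST1H2AG read 3.16, 4.12, 4.02, 4.86 and 3.19 CPM in VENsens and 4.42, 4.70, 4.11, 4.09 and 4.18 CPM in VENins, where the VENins values fell inside the VENsens range, and the log2 fold change was 0.16 (SE 0.130).

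HIST1H2AI was the H2A member with the widest interval. It read 0.832, 0.630, 0.282, 1.73 and 0.439 CPM in VENsens 1 to 5 and 0.470, 0.695, 0.814, 0.747 and 0.523 CPM in VENins 1 to 5. VENsens 4 was the highest and VENsens 3 the lowest of the 10, and its log2 fold change of -0.18 (SE 0.328) was 0.25 without pair 4. HIST2H2AB, under the filter, had 12, 8, 8, 17 and 9 counts in VENsens 1 to 5 and 2, 10, 14, 7 and 9 counts in VENins 1 to 5, highest in VENsens 4 and lowest in VENins 1.

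The 8 H2B members were all tested, 6 of them higher in VENins, with a median log2 fold change of 0.10. HIST1H2BD, with 1 transcript ending at the stem-loop and 1 that lacks it, read 5.49, 6.93, 6.34, 6.98 and 5.78 CPM in VENsens 1 to 5 and 6.01, 7.56, 7.04, 6.72 and 7.80 CPM in VENins 1 to 5. Only VENsens 1 and VENsens 5 were under all VENins lines, and the log2 fold change was 0.16 (SE 0.102, adjusted p of 0.475 in edgeR). HIST2H2BE, which runs past its stem-loop, read 8.40, 6.25, 5.25, 6.20 and 6.42 CPM in VENsens and 7.38, 6.87, 6.67, 6.33 and 6.10 CPM in VENins. VENsens 1 and VENsens 3 were the highest and the lowest of the 10, and the log2 fold change of 0.05 was -0.03 without pair 3. HIST1H2BC had the largest positive log2 fold change of the members, 0.35 (SE 0.211, adjusted p of 0.435 in edgeR), which was 0.20 without pair 2 and 0.61 without pair 4. It read 1.25, 1.45, 1.13, 2.04 and 1.04 CPM in VENsens and 1.5, 2.70, 1.87, 1.34 and 1.44 CPM in VENins, highest in VENins 2 and next in VENsens 4. The log2 fold changes of HIST1H2BJ, HIST2H2BF, HIST1H2BL and HIST1H2BN were 0.16, 0.05, -0.01 and -0.09. That of HIST2H2BF was -0.09 without pair 2, -0.00 without pair 3 and -0.03 without pair 5, and that of HIST1H2BL was 0.05, 0.08 and 0.08 without pairs 1, 2 and 4.

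The matched genes of classes H3 and H4 held few counts. HIST1H3D read 1.37, 1.55, 1.55, 3.16 and 1.80 CPM in VENsens 1 to 5 and 1.17, 1.68, 1.75, 1.81 and 2.05 CPM in VENins 1 to 5. VENsens 4 lay far above the other 9 libraries, and the log2 fold change of -0.13 was 0.08 without pair 4. HIST1H3J read 0.624, 0.630, 0.845, 1.52 and 0.718 CPM in VENsens and 0.658, 1.23, 1.42, 0.825 and 1.05 CPM in VENins. VENsens 4 was again the highest, ahead of VENins 3, and the log2 fold change was 0.27 (SE 0.259), 0.11 without pair 2 and 0.61 without pair 4. HIST2H3D, under the filter, had 0 to 9 counts per library.

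Among H4 genes, all 3 tested were lower in VENins, and the median log2 fold change was -0.33. HIST1H4C read 0.208, 0.533, 0.599, 1.43 and 0.319 CPM in VENsens 1 to 5 and 0.329, 0.245, 0.732, 0.511 and 0.523 CPM in VENins 1 to 5. VENsens 4 was the highest library and VENsens 1 the lowest, and the log2 fold change of -0.33 (SE 0.342) was 0.15 without pair 4. HIST1H4H read 1.96, 2.71, 1.69, 2.86 and 2.15 CPM in VENsens and 1.88, 1.59, 2.2, 2.32 and 2.05 CPM in VENins, with VENsens 4 and VENsens 2 the highest, and its log2 fold change was -0.16 (SE 0.170), -0.02 without pair 2 and -0.30 without pair 3.

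**Figure D3:**
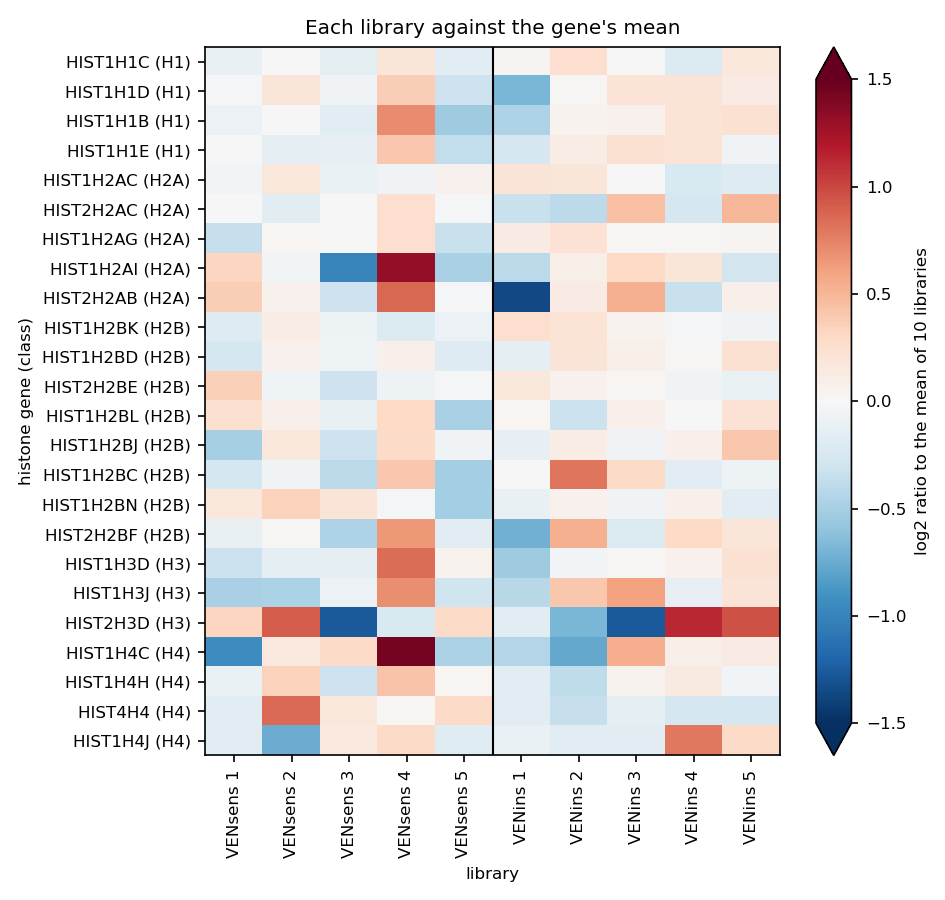
Log2 ratio of each library to the gene's mean over 10 libraries (color), for the 24 histone genes (rows, with class) in 5 VENsens and 5 VENins libraries (columns). VENsens 4 is the highest library in 12 of 24 rows.

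VENsens 4 recurred as the highest library, a pattern that was chosen for description after the values were seen. It was the highest of the 10 libraries for 12 of the 24 members and for 11 of the 21 tested, and for 4.93% of all genes tested. By class these were 3 H1, 3 H2A, 2 H2B, 2 H3 and 2 H4 genes. In VENsens 4, 18 members were above their mean of the 9 other libraries, 6 were below it, and 7 exceeded it more than 1.5 times. Of all genes tested 47.8% were above that mean, and their share over 1.5 times was not counted. The ratio to that mean was 3.22 in HIST1H4C, 2.87 in HIST1H2AI, 2.03 in HIST2H2AB, 1.93 in HIST1H3D, 1.71 in HIST1H1B, 1.71 in HIST1H3J and 1.66 in HIST2H2BF. At the other end, it was 0.553 in HIST2H3D, 0.847 in HIST1H2BK, 0.935 in HIST2H2BE, 0.952 in HIST1H2AC, 0.973 in HIST4H4 and 0.976 in HIST1H2BN. Of the 3 members with the most counts, HIST1H2BK and HIST1H2AC were thus below their mean of the other libraries, and HIST1H1C was above it at a ratio of 1.14. HIST1H4C, HIST1H2AI and HIST2H2AB, with the largest ratios, held only 130, 170 and 96 counts in all libraries together.

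Summed over the 24 members, the level in CPM was 93.8, 105.3, 91.9, 113.3 and 89.5 in VENsens 1 to 5 and 100.5, 110.6, 104.4, 97.8 and 101.9 in VENins 1 to 5. VENsens 4 held the highest sum and VENsens 5 the lowest, so that the VENins lines lay inside the range of the VENsens lines. The means were 98.8 ± 10.1 in VENsens and 103.0 ± 4.86 in VENins (SD, n = 5 each), a difference of 4.27 that became 7.91 without VENsens 4 and 0.63 without the 3 members with the most counts. The H3 sum was 4.79 in VENsens 4 and 1.94 to 3.35 in the others, and the H1 sum was 40.9 against 27.1 to 36.6. The H2B sum was 41.7 in VENsens 4, inside the range of 38.4 to 48.4 in the others.

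Grouped by their annotated transcripts, also after the values were seen, the 3 members that end at the stem-loop (HIST1H2AI, HIST1H2BL and HIST1H4J) summed to 3.26 CPM in VENsens 4 and 1.27 to 2.25 in the others. The gap rests mostly on HIST1H2AI, with 40 counts in VENsens 4, where HIST1H2BL had 33 and HIST1H4J 2. The ratios to the mean of the other libraries were 2.87, 1.26 and 1.49 in that order. The 9 members with a transcript that runs on past the stem-loop or lacks it summed to 39.0 in VENsens 4, inside the range of 33.8 to 40.9 of the other libraries. Of these 9, 5 were nevertheless above their mean of the other libraries in VENsens 4 and 3 were highest there, and the sum rests mostly on HIST1H2AC, HIST1H2BD and HIST2H2BE. The 11 members with short transcripts and no match to the stem-loop summed to 68.4 in VENsens 4 and 52.0 to 65.7 in the others. HIST1H2BJ, with a long transcript and no match, fell outside these groups.

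Other RNAs that lack a poly(A) tail, such as small nuclear and small nucleolar RNAs, were followed beside the histone genes. Of 41 symbols 33 were in the files, 9 of them without a count, and 17 had at least 10 counts. Of these 17, 8 were highest in VENsens 4, beside 4.93% of all genes tested. The sum over the 33 in CPM was 13.8, 10.6, 14.6, 34.8 and 12.0 in VENsens 1 to 5 and 11.1, 12.2, 13.2, 14.6 and 12.2 in VENins 1 to 5. VENsens 4 stood apart from 9 libraries that lay close together. RMRP, the RNA of a ribonuclease, was at 14.4 CPM in VENsens 4 and 3.01 to 4.53 CPM in the others, and the small nucleolar RNA SNORD3A at 3.94 CPM against 0.392 to 0.915 CPM. SNORA73B was at 8.76 CPM against 3.10 to 5.32 CPM. SCARNA12 went the other way, with 6 counts in VENsens 4, 0.550 times its mean of the other libraries in CPM, and a log2 fold change of 0.44 (adjusted p of 0.503 in edgeR). RNU4-1, named after the values were seen, had 31 counts in VENsens 4 and 0 to 4 in the others. In edgeR the log2 fold change was -1.25 for SNORD3A (adjusted p of 0.0925) and -0.58 for RMRP (adjusted p of 0.185), and without pair 4 it was -0.65 and -0.23. Both passed the threshold only with no filter on low counts. The part of these RNAs in the histone values of VENsens 4 was not tested.

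**Figure D4:**
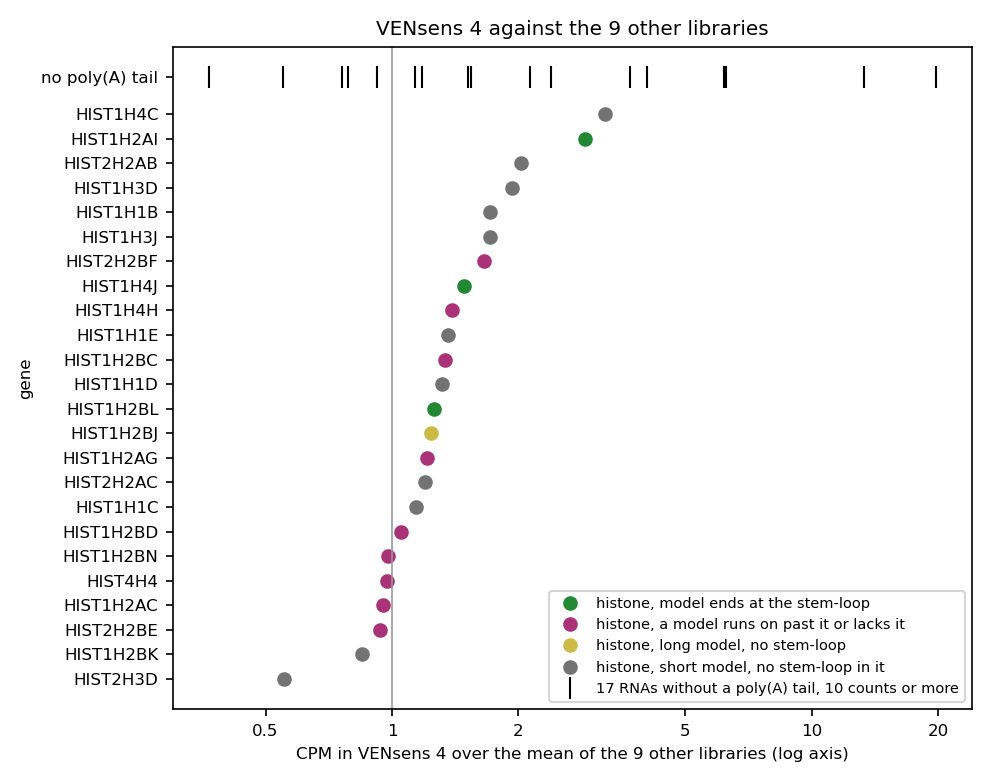
Ratio of CPM in VENsens 4 to the mean of the 9 other libraries (log axis) for the 24 histone genes (dots, colored by annotated transcript) and 17 RNAs without a poly(A) tail (ticks). HIST1H4C (3.22) and HIST1H2AI (2.87) lead the histone genes, and HIST1H2BK (0.847) and HIST2H3D (0.553) are lowest.

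The S-phase genes were also looked at in VENsens 4. Of 30 genes 22 were above their mean of the other 9 libraries there, beside 18 of 24 histone members and 47.8% of all genes tested. Highest there were 5 of the 30, or 16.7%, beside 4.93% of all genes tested. The ratios to the mean of the other 9 libraries were 0.956 to 1.11 with a median of 1.03. The histone members had 0.553 to 3.22 with a median of 1.29, and all genes tested 0.110 to 6.17 with a median of 0.996. Both histone extremes were members with few counts, HIST2H3D with 35 and HIST1H4C with 130 over all libraries. Summed over 30 genes, the S-phase genes reached 6987 CPM in VENsens 4, and 6173 to 7138 CPM over all libraries, with the lowest value in VENsens 2. Of the 30 genes 12 were higher and 18 lower in VENins, with a median log2 fold change of -0.02 and none past the threshold. For PCNA, the sliding clamp of DNA polymerase, the log2 fold change was 0.14 (adjusted p of 0.207 in edgeR), for MCM2 of the replicative helicase -0.12 (adjusted p of 0.273) and for TYMS, which makes thymidylate, 0.11 (adjusted p of 0.288). MCM7 and MCM3, the highest of the list in CPM without length, had -0.07 and -0.04. In CPM per kb PCNA was the highest, at 342.1.

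**Figure D5:**
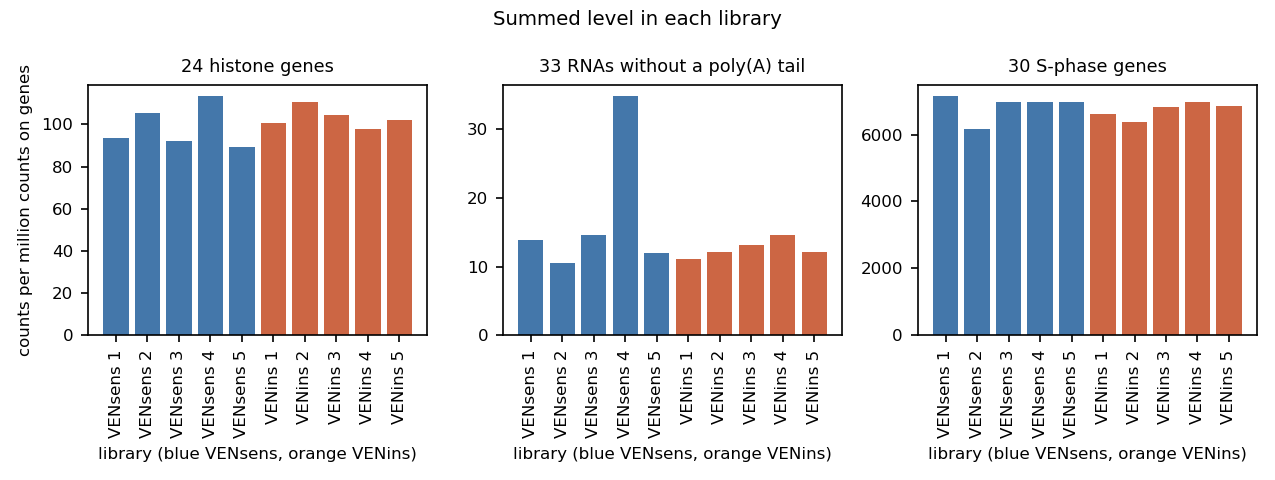
Level in CPM, summed in each library over 24 histone genes, 33 RNAs without a poly(A) tail and 30 S-phase genes (bars, VENsens in blue and VENins in orange). VENsens 4 is highest in the first panel (113.3) and stands apart in the second (34.8), while VENsens 2 is lowest in the third (6173).

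The replacement histones come from genes outside the HIST clusters, and most of their mRNAs carry poly(A) tails, while H2AFX is known to give both a polyadenylated and a stem-loop form. Of 10 tested, 9 were higher in VENins, beside 51.1% of all genes tested, with a median log2 fold change of 0.12. Among the 9, H3F3A was unchanged at 0.0006 (p of 0.994 in edgeR). None of the 10 passed the threshold in the main edgeR fit. CENPA, the centromeric H3, read 25.6, 31.0, 35.1, 34.7 and 33.0 CPM in VENsens 1 to 5 and 43.1, 41.5, 43.3, 34.8 and 43.9 CPM in VENins 1 to 5. VENins 4 fell between VENsens 3 and VENsens 4, and the 4 other VENins lines lay above all VENsens lines. The log2 fold change was 0.38 (SE 0.0852, adjusted p of 0.0768 in edgeR), against 0.20 for H2AFZ, the variant H2A.Z (adjusted p of 0.115), and 0.12 for H3F3B, one of the H3.3 genes (adjusted p of 0.241). The groups of H2AFZ and H3F3B did not overlap, which held for 4.66% of all genes tested. The 1 gene lower in VENins, the linker variant H1F0, was named after the values were seen and had 12, 14, 25, 9 and 10 counts in VENsens 1 to 5 and 0, 0, 11, 23 and 1 counts in VENins 1 to 5. VENins 4 was the highest library in CPM and 3 VENins lines were at or near 0, and the log2 fold change was -1.09 (SE 0.578, adjusted p of 0.371 in edgeR). Without pair 4 it was -2.29 (adjusted p of 0.0330) and without pair 2 -0.70, and it also passed with no filter on low counts. The median of the tested HIST members was 0.02, and 0.17 without pair 4. With DESeq2 and the block, CENPA (adjusted p of 0.0132) and H2AFZ (adjusted p of 0.0446) passed the threshold. CENPA also passed in edgeR without the block (adjusted p of 0.0479), with no filter on low counts and without pair 4, H2AFZ with no filter, and these and H3F3B in DESeq2 without the block.

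The list of histone mRNA 3′ end processing and turnover joins proteins that bind the stem-loop shown above with cleavage, cap-binding and decay factors. Of 32 tested, 20 were higher in VENins, with a median log2 fold change of 0.03 and none past the threshold. SLBP, which binds the stem-loop, read 209.5, 186.7, 204.0, 203.7 and 208.2 CPM in VENsens 1 to 5 and 231.6, 245.6, 237.1, 224.3 and 229.9 CPM in VENins 1 to 5. All VENins lines were above all VENsens lines, and the log2 fold change was 0.21 (SE 0.0544, adjusted p of 0.0991 in edgeR). SLBP passed the threshold in edgeR without the block (adjusted p of 0.0429), with no filter on low counts and with length and GC trends removed, and in DESeq2 with the block (adjusted p of 0.0323) and without it. SNRPG and LSM10, which code for proteins of the Sm fold, had 0.24 (adjusted p of 0.138) and 0.21 (adjusted p of 0.171), and SNRPG passed only in DESeq2 without the block. NCBP2 of the cap-binding complex and SNRPB, the highest of the list in CPM without length, had 0.04 and 0.15. In CPM per kb SNRPB and SLBP were the highest, at 229.6 and 107.6.

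The list of histone gene transcription had 12 tested genes, 8 higher and 4 lower in VENins with a median of 0.02, and the list of histone chaperones and modifiers had 30, 17 higher and 13 lower with a median of 0.01. None passed the threshold in either. GON4L, a nuclear protein tied to histone gene transcription, was lower in all 5 VENins lines at a log2 fold change of -0.17 (adjusted p of 0.202 in edgeR), POU2F1, which binds the octamer, had -0.16 (adjusted p of 0.216) and CCNA2, a cyclin of S phase, 0.16 (adjusted p of 0.263). HJURP, the chaperone of CENPA, had 0.22 (adjusted p of 0.122), SUPT6H -0.17 (adjusted p of 0.161) and ASF1A 0.17 (adjusted p of 0.213). HJURP and SUPT6H passed in DESeq2 without the block, and HJURP also in edgeR with no filter on low counts and without pair 4. In CPM without length, YY1 and CDKN1B were the highest of the transcription list, with log2 fold changes of 0.03 and 0.01. NAP1L1 and SET were the highest chaperones on that scale, with 0.12 and 0.05. In CPM per kb the highest were CDKN1B (74.65) and CCNA2 (67.14), and among chaperones SET (201.7) and NPM1 (179.7). Of all genes in these lists only the B-lineage marker PAX5 passed in the main edgeR fit, with a log2 fold change of -0.31 (adjusted p of 0.0272).

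Gene length was looked at beside the direction of change, with no test of the set. Of 102 tested protein-coding genes under 1 kb of exonic length that are not members, 85 were higher in VENins, or 83.3%, with a median log2 fold change of 0.15, beside 51.1% and 0.00 over all genes tested. Of the 14 tested members under 1 kb, 9 were higher, or 64.3%, with a median of 0.06. When trends with length and GC content were removed, the log2 fold change of HIST1H2BK was 0.13 (adjusted p of 0.420 in edgeR). Under the same setting 10 of the 21 tested members were higher in VENins, in place of 12, and their median was -0.01.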

How the data were processed

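The authors deposited counts, 1 file per library with reads per Ensembl gene and no normalization. The kit was TruSeq RNA v2, which selects poly(A) RNA and is unstranded. The submitters' processing notes give bcl2fastq 2.20.0.422, Bowtie2 2.3.5.1, SAMtools 1.9 and HTSeq 0.9.1, with hg19 and GRCh37 as builds. Bowtie2 is not splice-aware. Of the reads in each file, 52.7 to 54.2% were counted on genes, and 24.6 to 26.2% were dropped for low alignment quality, which holds reads that map to several places.

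Counts were tested in R 4.3.3 with edgeR 4.0.16 and limma 3.58.1 (filterByExpr, TMM, quasi-likelihood F test with line number and condition, Benjamini-Hochberg over all tested genes, threshold 0.05), with DESeq2 1.42.0 as an alternative. Python 3.11.15, numpy 2.4.6, pandas 2.3.3 and matplotlib 3.10.9 read the sequences and drew the plots. The scripts were tested on simulated data. CPM of a gene is TMM-normalized, and sums in CPM use raw counts on genes.

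Line number was used as a block because the study's methods describe a paired analysis. In the data, lines of the same number had correlations of their deviations from the group mean between -0.10 and 0.03, so the numbers do not pair the libraries by their values. Chi-square over degrees of freedom between lines of a group was 1.93 to 14.2. Members were named by a rule: the 3 per class with the highest level per kb, those with known polyadenylated forms and those with an unadjusted p under 0.05. In each companion list the rule took the 3 smallest p and the 2 highest levels in CPM without length. HIST1H1E, HIST1H2AI, HIST2H2AB and HIST1H2BC were added for their class or promoter pair, and H1F0 and RNU4-1 after the values were seen. The members and lists were chosen with earlier results of these data known.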

Additional observations from a re-analysis of the deposited data

Results flagged for a closer look

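Of 66 groups of 5 values examined, 9 held a library far from the other 4 by the gap to the next value, and in 4 of the 9 it was VENsens 4. The flags are not independent, since the H3 sum holds HIST1H3D and HIST1H3J. Chance flags about 1 in 20 groups. VENsens 4 was high for HIST1H3D at 3.16 CPM (next 1.80), for HIST1H3J at 1.52 CPM (next 0.845), for the sum of H3 genes at 4.79 CPM (next 2.66) and for RNAs without a poly(A) tail at 34.8 CPM (next 14.6). VENins 1 was low for HIST1H1D at 3.05 CPM, where the next line had 5.03. VENsens 2 was low for the sums of replacement histones at 2333 CPM, of chaperones at 6662 and of S-phase genes at 6173. VENins 5 was high for the sum of 3′ end processing genes at 3235 CPM. The causes were not tested.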

How the results depend on the processing

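No histone member passed the threshold under any alternative. The count of all genes past it was 33 in the main fit, 149 without the block, 217 in DESeq2 with and 739 without the block, 664 with no filter, 155 with length and GC trends removed, 18 without the block and VENsens 4, and 57, 6, 17, 331 and 9 without pairs 1 to 5. The cause was not tested. Of 292 member values under alternatives, 267 kept their direction and 25 reversed. Without the block and VENsens 4, the log2 fold change was 0.059 for HIST1H1D, 0.29 for HIST1H2AI, 0.065 for HIST1H2BL, 0.11 for HIST1H3D, 0.17 for HIST1H4C and 0.0075 for SNORA73B. With length and GC trends removed it was -0.0095 for HIST1H1B and -0.032 for HIST2H2AC, and in DESeq2 with the block -0.0037 for HIST2H2AC. With 1 pair left out the range was -0.15 to 0.18 for HIST1H1B, -0.17 to 0.083 for HIST1H1D, -0.076 to 0.049 for HIST1H2AC, -0.53 to 0.25 for HIST1H2AI, -0.13 to 0.16 for HIST2H2AC, -0.18 to 0.084 for HIST1H2BL, -0.027 to 0.11 for HIST2H2BE, -0.087 to 0.19 for HIST2H2BF, -0.22 to 0.080 for HIST1H3D, -0.55 to 0.15 for HIST1H4C, -0.011 to 0.041 for CDKN1B and -0.34 to 0.057 for CD14. The count of members at an unadjusted p under 0.05 was 0 in DESeq2 with the block, 1 with length and GC trends removed, and 1 to 4 with a pair left out. Members higher in VENins numbered 8 to 17 with a pair left out. The difference in the summed members was 2.23 to 9.22 CPM with 1 library or pair left out, against 4.27 in the main value, and 0.63 CPM without the 3 members with most counts. The median log2 fold change of the members, 0.025, was -0.032 to 0.17 with a pair left out. Companion genes had 484 values, of which 479 kept their direction and 36 passed the threshold. Members with few counts, and those whose reads fit several genes, are limited by depth and by the reads dropped.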
